A study of Homo sapiens with 8 samples.

Results

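NEAT1 (ENSG00000245532), a long noncoding RNA that builds the nuclear bodies called paraspeckles, was 1 of 1950 genes in the authors' deposited expression table of K562 cells, and it was taken from that table by its gene name. RNA was sequenced from 8 libraries of K562, an established human chronic myeloid leukemia line. Of these, 4 libraries (extract 1 to 4) came from cells kept for 3 days with an extract of the stem of Polygonum multiflorum (Caulis Polygoni Multiflori) at 80 µg/mL. The other 4 (control 2 to 5) came from cells without the extract, for which no vehicle and no length of culture are stated. All 8 share the same line and the same medium, and the labels do not say whether the libraries of a group are separate cultures. Every p-value computed here therefore measures the spread between libraries, which may be technical. The authors' deposited p-values are quoted as they stand, and what spread they measure is unknown here. The protocol text of the control libraries also names the extract, and the groups follow the treatment entry of each library. By its title the series is about the extract's effect on the making of megakaryocytes and platelets, with AKT and ERK signaling as the route studied.

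NEAT1 RNA is the scaffold of paraspeckles. A long form binds the proteins SFPQ, NONO and RBM14 while it is still being transcribed, and the body that forms can hold back these proteins and certain RNAs in the nucleus. A short form starts at the same promoter and ends early at a polyadenylation site, and it cannot build the body alone. Transcription of NEAT1 is known to respond to stress, among other routes through HSF1 and hypoxia-inducible factors, and in chronic myeloid leukemia cells MYC has been reported to bind its promoter and hold it down.

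In the GENCODE 29 annotation NEAT1 lies on the plus strand of chromosome 11, from 65422774 to 65445540 (GRCh38), and has 8 transcripts. The long form, NEAT1-202, is a single exon of 22743 bases. The other 7 are short, from 512 to 3524 bases, and none runs past base 65426513, so 19027 bases, or 83.7% of the long form, belong to the long form alone. The deposited table gives 1 value for the whole gene. A change in the short form, in the long form or in both would therefore enter the same number, and they cannot be told apart here.

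Both 3′ ends are shown because they set how each form can enter a library. The short form ends behind a polyadenylation signal (AATAAA, capitals). The long form has no such tail. Its end holds U-rich motifs and an A-rich tract (capitals) that are known to fold into a triple helix which protects it. The short form shown is the one that reaches furthest.
Short form, last 100 bases (chr11:65426414-65426513, plus strand): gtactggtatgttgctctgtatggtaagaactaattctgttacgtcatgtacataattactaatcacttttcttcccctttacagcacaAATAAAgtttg
Long form, last 120 bases (chr11:65445421-65445540, plus strand): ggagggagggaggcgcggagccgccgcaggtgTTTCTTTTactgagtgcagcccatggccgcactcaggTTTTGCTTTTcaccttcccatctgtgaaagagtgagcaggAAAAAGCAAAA
The signal AATAAA stood in the last 100 bases of 26.9% of 203677 GENCODE 29 transcripts, searched on the transcribed strand only. TTTCTTTT, TTTTGCTTTT and AAAAAGCAAAA, whose letters were read from this end, stood in the last 120 bases of 1.48%, 0.117% and 0.0553% of 200764 transcripts. The 3 together stood in 1 transcript, NEAT1-202. Only the last 120 bases were searched, with letters read from NEAT1 itself, so similar ends elsewhere could be missed. A small RNA of the family RF01684 is annotated from the very next base, 65445541. Another of this family is annotated inside the gene MALAT1 (65506117 to 65506173). The last 120 bases of that gene, which ends at 65506516, do not reach it. The libraries were made from total RNA with a TruSeq RNA kit. No source used here says whether RNA without a poly(A) tail was kept, so the share of the long form in the NEAT1 value is unknown.

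NEAT1 was lower with the extract in every library. The values in the controls were 268 in control 2, 280 in control 3, 274 in control 4 and 285 in control 5. With the extract they were 182 in extract 1, 174 in extract 2, 168 in extract 3 and 163 in extract 4. These are expression values, and no source used here gives their unit. The groups did not overlap, which was so for 45.9% of the 750 genes tested (those with a value of 1 or higher in 4 or more libraries) with the extract group below the controls, and the gap of 85.8 between the lowest control and the highest extract library was wider than the range within the controls (16.96) or within the extract group (19.3).

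The mean was 277 ± 7.34 in the controls and 172 ± 8.32 with the extract (SD, n = 4 each). The ratio of means was 0.621, which is 37.95% lower or a 1.61-fold difference. Over the 16 pairs of an extract and a control library the ratio ran from 0.572 to 0.68. On the log2(value + 1) scale, extract minus control was −0.69 (SE 0.0386). NEAT1 was chosen from values of this same contrast, so the difference is a description and no test of it is given.

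**Figure D1:**
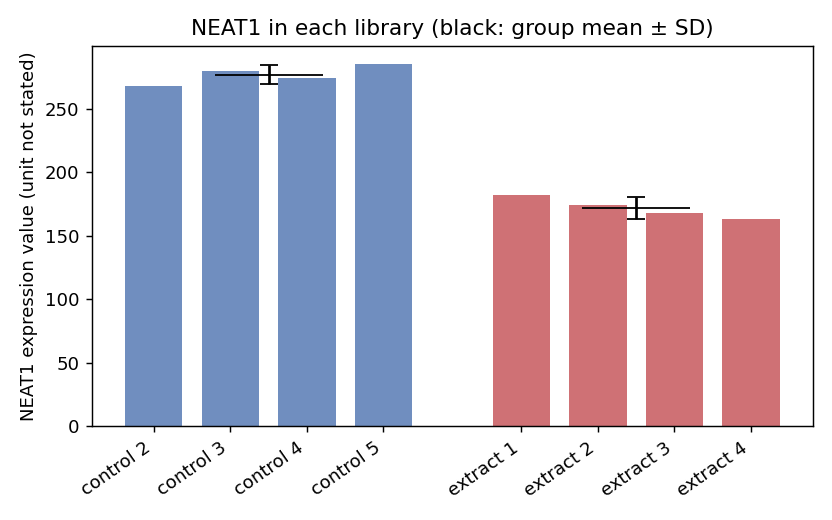
Expression value of NEAT1 in each of the 8 libraries (bars, axis from 0, unit not stated), with the mean ± SD of each group in black. The control bars lie between 268 and 285 and the extract bars between 163 and 182, with no overlap.

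The table itself had been selected. Each of its genes had a deposited p-value of at most 0.0499 and a deposited change of at least 1.5-fold in either direction. For NEAT1 the authors' deposited table gave a fold change of 0.663, a log2 fold change of −0.594, a p-value of 4.74e-148 and an adjusted p-value of 1.92e-144. By its p-value NEAT1 stood near the top, with 13 of the 1950 genes at a smaller one. By its size it stood near the edge of the selection, where the smallest log2 change listed was 0.585. Of the 1100 genes listed as lower, 18 had a smaller change. The deposited fold change is less than the 1.61-fold difference between the deposited means, and how it was made is not given.

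NEAT1 varied little between libraries of a group. Its coefficient of variation was 2.65% in the controls and 4.84% with the extract. The SD within groups on the log2(value + 1) scale was 0.0558, against a median of 0.201 over the 750 tested genes. Only 29 of the 750 had a smaller SD. Most of the others were far less abundant, and among the 13 genes with a mean value of at least 100 the median was 0.0516, with 8 of them below NEAT1. So the tightness of NEAT1 is near that of other genes at high values.

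The size of the difference was near the middle of the genes called lower. The median difference of the 750 tested genes was −0.50, and NEAT1 lay 0.19 below it (NEAT1 minus median −0.19). A more negative difference was found for 193 genes. This order is on the log2(value + 1) scale, where the added 1 draws differences toward 0 at low values. Among genes called lower (limma on log2(value + 1), Benjamini-Hochberg adjusted p under 0.05 over the 750 genes) the median was −0.66. The value of NEAT1 depends on scaling. When each library was shifted to a common median, a shift of −0.27 between the groups, the difference became −0.42. With quantile normalization it was −0.59. Both scalings use genes that were chosen as changed, most of them lower, and the scalings cannot be ranked from them. The difference of NEAT1 stayed below 0 under every alternative run. Leaving out each library in turn gave −0.72 to −0.66.

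**Figure D2:**
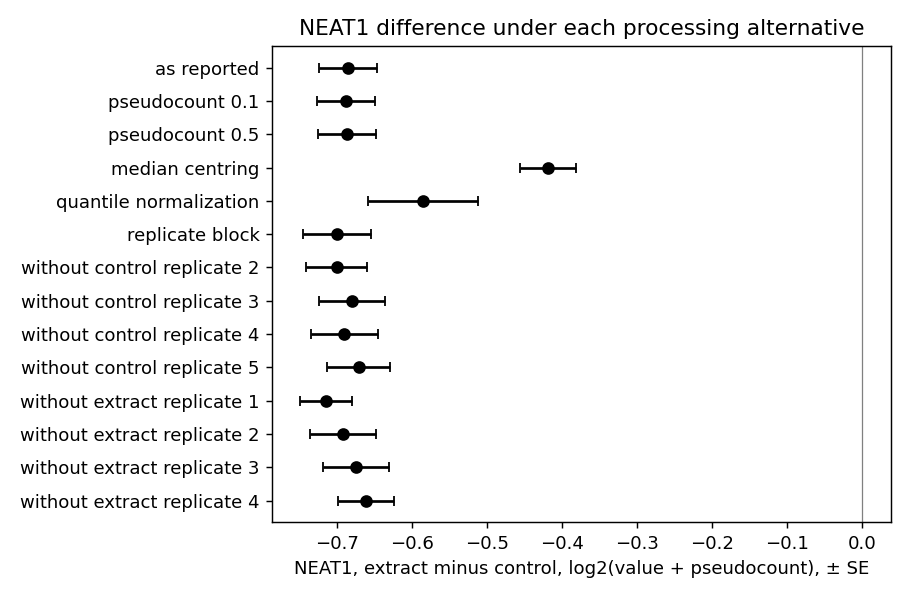
Difference of NEAT1 between extract and control on the log2 scale (points, bars ± SE) as reported and under 13 alternatives. All points lie left of 0, and median centring (−0.42) stands apart from the others (−0.72 to −0.59).

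A short annotated RNA inside NEAT1 had its own row in the table and was uneven. This row (ENSG00000278144) is RF01955, a conserved 120-base block of NEAT1 from 65423273 to 65423392, which GENCODE 29 lists as a separate gene on the same strand. It begins 475 bases after the start of NEAT1-202 and its letters are found there once. The block (capitals) is printed with 40 bases of NEAT1 on each side because any read within it also matches NEAT1.
RF01955 within NEAT1 (chr11:65423233-65423432, plus strand): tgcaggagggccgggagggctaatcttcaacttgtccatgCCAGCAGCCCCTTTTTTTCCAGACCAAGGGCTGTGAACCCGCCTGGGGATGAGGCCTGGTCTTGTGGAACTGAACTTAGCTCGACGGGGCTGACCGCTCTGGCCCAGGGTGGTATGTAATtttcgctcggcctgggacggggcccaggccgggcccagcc
RF01955 was listed at 0 in control 2, 3 and 5 and in extract 1, 2 and 3. It had a value of 28.1 in control 4 and 193 in extract 4. The authors' deposited table gave it a log2 fold change of 2.69 with an adjusted p-value of 0.351, in the direction opposite to NEAT1. That value rests on control 4 and extract 4, the libraries of each group not listed at 0. Extract 4 had the lowest NEAT1 value of its group (163). The row did not pass the filter and was not tested here. How reads in these shared bases were assigned is not given, and the part of this row in the NEAT1 value was not tested. Without extract 4 the NEAT1 difference was −0.66, and without control 4 it was −0.69.

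Genes around NEAT1 on chromosome 11 were listed in both directions. Within 2 Mb on either side the table listed 17 other genes, 10 lower and 7 higher in the authors' deposited fold changes. The 9 that passed the filter were tested in the same limma fit. Of these 9, 6 were called lower, 1 higher and 2 neither. Over all tested genes 82.8% were called in either direction, 56.0% lower and 26.8% higher, so the neighbours' 6 of 9 stands near that background. MALAT1, the abundant nuclear RNA whose gene starts 52.1 kb beyond the end of NEAT1, was not in the table and was not analysed here.

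The nearest listed gene beyond NEAT1 was the FAU pseudogene AP000769.1 (ENSG00000173727), 9.7 kb downstream on the same strand (65455258 to 65466720). Its values were 26.4, 30.6 and 31.0 in control 2, 3 and 4 but 5.25 in control 5. With the extract they were 5.01, 2.70 and 4.83 in extract 1, 2 and 3 and 13.5 in extract 4, so the groups overlapped. It was called lower by limma (log2 difference −1.63, SE 0.608, adjusted p = 0.036). The authors' deposited table gave it a log2 fold change of only −0.629, and how that was made is not given. The call held in 2 of the 8 fits that left out 1 library, those without control 5 and without extract 4, with adjusted p from 0.00325 to 0.0885. It was also lost with median centring (limma adjusted p = 0.082), with quantile normalization (adjusted p = 0.104) and without a filter (adjusted p = 0.0588). Pseudogenes share sequence with their parent gene, and how the authors' counting split such reads is not given.

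FAM89B, 126.8 kb downstream of NEAT1, was the tested neighbour called higher. It had 4.49, 1.87, 2.03 and 1.04 in control 2 to 5 and 4.06, 2.51, 7.40 and 6.16 in extract 1 to 4. The groups overlapped, and the limma adjusted p of 0.0499 was at the threshold. The call was lost without control 3, 4 or 5 or without extract 1, 3 or 4 (limma adjusted p from 0.0716 to 0.12), and it held without control 2 and without extract 2. It was also lost with either smaller pseudocount (adjusted p = 0.0529 at 0.1 and 0.0509 at 0.5) and without a filter (adjusted p = 0.0766). The annotation of FAM89B overlaps that of a gene on the same strand, SSSCA1. AP003068.4 and ARL2-SNX15, 303.7 and 382.2 kb upstream, were too low to test, with means of 0.48 and 0.393 in the controls and 1.04 and 0.183 with the extract.

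**Figure D3:**
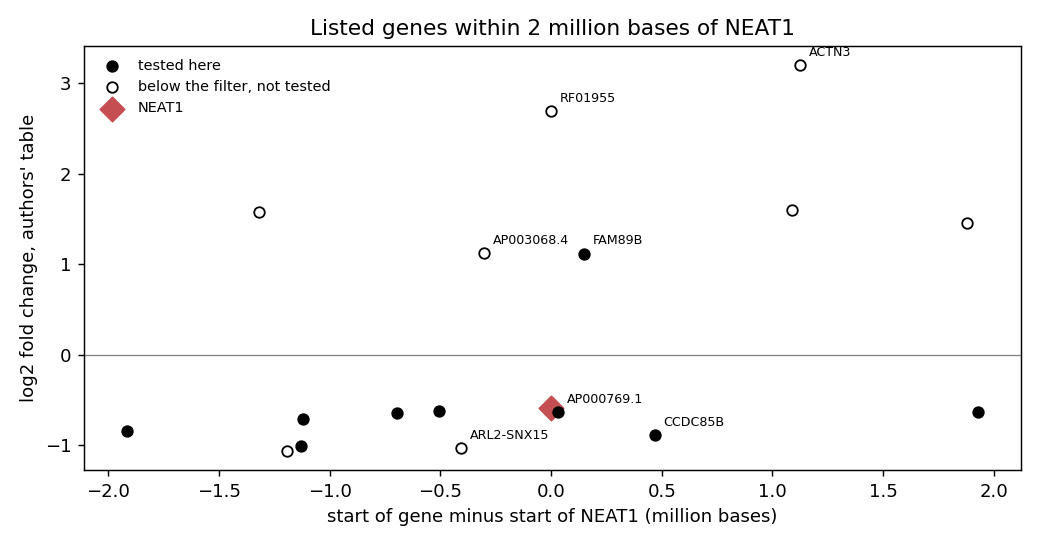
Log2 fold change in the authors' deposited table (vertical axis) of NEAT1 (diamond) and the 17 other listed genes within 2 Mb, by distance of their start from the start of NEAT1 (horizontal axis). Filled points were tested here and open points were below the filter. NEAT1 (−0.594) sits among 10 other genes below 0, and 7 genes lie above 0.

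The proteins that make paraspeckles were not in the table. Of 40 paraspeckle proteins, SFPQ, NONO, PSPC1 and RBM14 among them, 0 were listed. Nor were any of 10 factors that choose and process the 3′ ends of NEAT1 (0 listed, NUDT21, CPSF6 and HNRNPK among them), or any of 11 RNAs reported to be held or controlled through paraspeckles, such as CXCL8 and ADARB2 (0 listed). These genes were not analysed here, and their absence from a table of selected genes gives no value for them.

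Of 20 factors reported to act on NEAT1 transcription 3 were in the table, 2 called higher and 1 lower, where 26.8% and 56.0% of all tested genes were. MYC, a transcription factor of cell growth, was 141, 144, 138 and 142 in control 2 to 5 and 301, 286, 291 and 301 in extract 1 to 4 (log2 difference 1.05, limma adjusted p = 3.42e-08). MYC was thus higher in each extract library, where NEAT1 was lower. Within groups the 2 genes went together only weakly (r = 0.21 for deviations from the group means over the 8 libraries, a description). EPAS1, the hypoxia-inducible factor HIF-2α, went from 5.27 ± 0.585 to 9.23 ± 1.48 (log2 difference 0.70, adjusted p = 0.00128, limma). CEBPB, a myeloid transcription factor, went from 9.38 ± 2.61 to 5.21 ± 0.643 (log2 difference −0.71, adjusted p = 0.00647, limma), with its highest control value, 12.9, in control 3 and a call lost under median centring (limma adjusted p = 0.0543). HSF1, HIF1A, STAT3, RELA and RUNX1 were not in the table. Any part of these genes in the level of NEAT1 was not tested. None of 24 MYC target genes was in the table (0 listed). Absence from a table of selected genes gives no value for these targets or for the absent factors.

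Lists for the stress routes known to reach NEAT1 had few genes in the table. The heat shock list had 1 of 16, HSPA1B, a chaperone gene that rose from 95.03 ± 3.34 to 193 ± 3.82 (limma adjusted p = 1.02e-07). HSPA1B shares reads with its near-identical copy HSPA1A, so its own value is uncertain. The hypoxia list had 2 of 18. Of these, SLC2A3, which encodes a glucose transporter, fell from 43.3 ± 1.85 to 21.3 ± 1.04 (log2 difference −0.99, limma adjusted p = 2.08e-06). With quantile normalization the difference of SLC2A3 was −0.37 (limma adjusted p = 0.00149). The other, CA9, was too low to test.

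All 4 listed genes of the integrated stress response (of 20) fell, against the background of 56.0% called lower. They were CEBPB, ATF3, a stress-induced transcription factor, STC2, a secreted hormone, and SLC7A11, the cystine transporter. The call of CEBPB is the one lost under median centring. ATF3 went from 8.17 ± 0.294 to 4.04 ± 0.878, STC2 from 8.81 ± 0.861 to 4.54 ± 0.723 and SLC7A11 from 4.61 ± 0.414 to 2.80 ± 0.17 (limma adjusted p = 0.000479, 0.000405 and 0.000772). With median centring the difference of SLC7A11 shrank from −0.56 to −0.30. The median difference of the 4 was −0.77, against −0.50 for all tested genes and −0.69 for NEAT1. Of 18 NF-kappaB targets 3 were listed. The cytokine gene IL6 rose from 0.615 ± 0.194 to 3.81 ± 0.515 and the early response gene IER3 fell from 12.1 ± 0.815 to 7.92 ± 0.871 (adjusted p = 2.13e-05 and 0.000763, limma), and BIRC3 was too low to test. With median centring the difference of IER3 shrank from −0.56 to −0.29. All genes of the table were chosen for a difference between these libraries, so none of these calls is independent evidence of one.

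**Figure D4:**
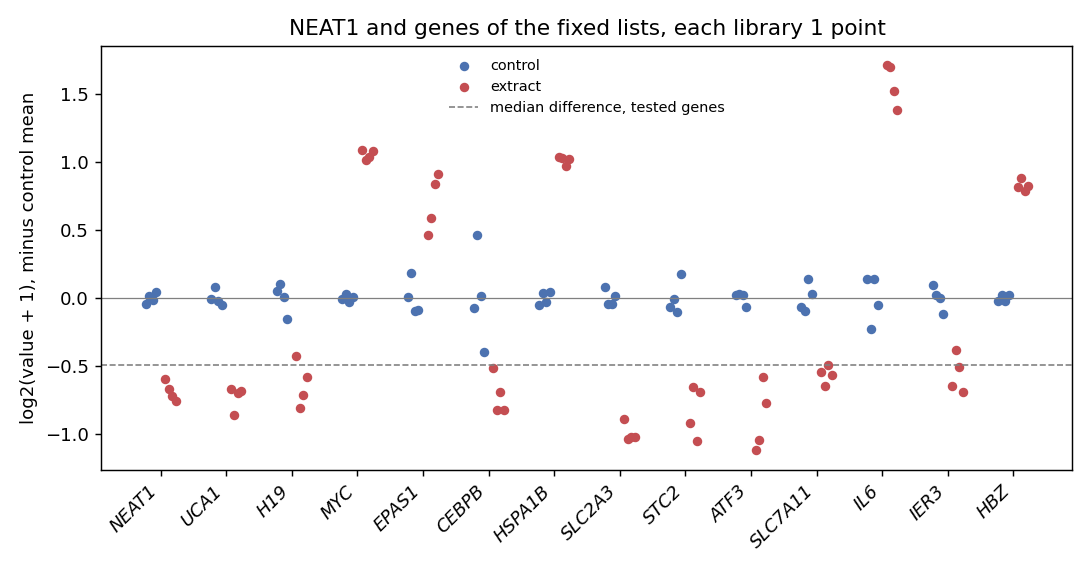
Each library's log2(value + 1) minus the control mean of the gene (control blue, extract red) for NEAT1, tested genes of the fixed lists and HBZ. The dashed line is the median difference of all tested genes (−0.50). The extract points of NEAT1 lie below 0 beside those of UCA1 and H19, while MYC, EPAS1, HSPA1B, IL6 and HBZ lie above.

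Other long noncoding RNAs were called in about the shares of all tested genes. Of 37 well-known long noncoding RNAs 2 were listed, and both fell. UCA1, a cancer-associated RNA, had 68.1, 72.4, 67.5 and 66.2 in control 2 to 5 and 42.7, 37.4, 41.9 and 42.2 in extract 1 to 4. The groups did not overlap (log2 difference −0.73, limma adjusted p = 1.31e-05). The difference of UCA1 shrank to −0.46 with median centring and to −0.17 with quantile normalization, where its limma adjusted p was 0.0482. H19, the imprinted RNA, went from 34.4 ± 2.71 to 21.9 ± 2.65 (log2 difference −0.63, adjusted p = 0.000579, limma), and was −0.37 with median centring and −0.09 with quantile normalization, where the call was lost (limma adjusted p = 0.35). By their GENCODE 29 type, a grouping made after the data were seen, 554 genes of the table were long noncoding and 179 of these were tested. Of the 179, 44 (24.6%) were called higher and 100 (55.9%) lower, near the 26.8% and 56.0% of all tested genes, with a median difference of −0.52, close to the −0.50 of all tested genes. The difference of NEAT1 was more negative than this median, and 50 of the 179 had a more negative difference. The added 1 draws differences toward 0 at low values, so this order is not like for like between NEAT1 and less abundant genes. In the authors' deposited log2 fold changes NEAT1 (−0.594) stood near the smallest size listed (0.585). NEAT1 was 1 of 3 tested long noncoding genes with a control mean of at least 100.

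Genes with the pattern most like NEAT1 were sought among 535 tested genes with a symbol, pseudogenes left out. Over the 8 libraries the highest Pearson correlations of log2(value + 1) were those of SNHG19, a snoRNA host RNA (r = 0.996), TMSB4X, the actin-binding thymosin β4 (0.993), LINC01311 (0.993), WIPI1, an autophagy protein (0.992), and BMX, a Tec-family kinase (0.991). This r mostly records the step between the groups, which is what the table was chosen for, and 173 of the 535 genes reached 0.9. SNHG19 had 351, 372, 380 and 389 in control 2 to 5 and 202, 196, 197 and 188 in extract 1 to 4. In both genes control 2 was the lowest control, control 5 the highest, extract 1 the highest extract library and extract 4 the lowest. TMSB4X went from 1122 ± 33.2 to 593 ± 6.12, WIPI1 from 14.5 ± 1.30 to 7.38 ± 0.481, BMX from 28.8 ± 1.66 to 16.6 ± 0.681 and LINC01311 from 23.6 ± 1.15 to 13.4 ± 0.799.

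The spread between libraries of a group is a separate view, since the step between the groups is taken out of it. After the group means were removed, the highest correlations over the 8 libraries were with TCAP (r = 0.91), PSMG3-AS1 (0.907), ZNF670 (0.894), RHEBL1 (0.833) and ZNF345 (0.825). In all, 9 of the 535 genes reached 0.8 and 3 reached −0.8. How many would do so by chance over only 8 libraries was not tested. The named genes are the highest of 535, so their r is no evidence that they vary with NEAT1. TCAP and PSMG3-AS1 were at values near 1, with group means from 0.763 to 1.36, and neither was called in limma (adjusted p = 0.0529 and 0.209). After median centring the within-group r fell to 0.731 for TCAP, 0.674 for RHEBL1 and 0.694 for ZNF345, and stood at 0.821 for PSMG3-AS1 and 0.88 for ZNF670. The rank correlation within groups was 0.762 for TCAP, 0.714 for RHEBL1 and 0.643 for ZNF345. PSMG3-AS1 is named as an antisense RNA and LINC01311 is annotated as one, and without a stated strand their reads cannot be told from those of a partner on the other strand.

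ZNF670, a zinc finger gene, was alone in standing among the 5 within groups and also above 0.99 over all 8 libraries (r = 0.991). It had 7.74, 8.03, 7.89 and 8.54 in control 2 to 5 and 5.16, 5.01, 4.76 and 4.08 in extract 1 to 4. The 8 libraries stood in the same order for ZNF670 as for NEAT1 (rho = 1.0 over 8 libraries). Its own difference was −0.66 (limma adjusted p = 0.000268), and −0.39 with median centring. RHEBL1, a Ras-like GTPase gene, went from 5.09 ± 0.633 to 3.02 ± 0.918 and ZNF345 from 1.49 ± 0.278 to 0.98 ± 0.326. Both were called lower (limma adjusted p = 0.0124 and 0.0497). Both scalings ended the call of RHEBL1 (limma adjusted p = 0.0951 and 0.0858). The groups of ZNF345 overlapped (extract 1 had 1.45 and control 4 had 1.16). Its call was lost in 6 of the 8 fits that left out 1 library, all but those without control 4 and without extract 1 (limma adjusted p from 0.0128 to 0.121), and it was also lost with either smaller pseudocount, without a filter and under both scalings (adjusted p from 0.0501 to 0.647).

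**Figure D5:**
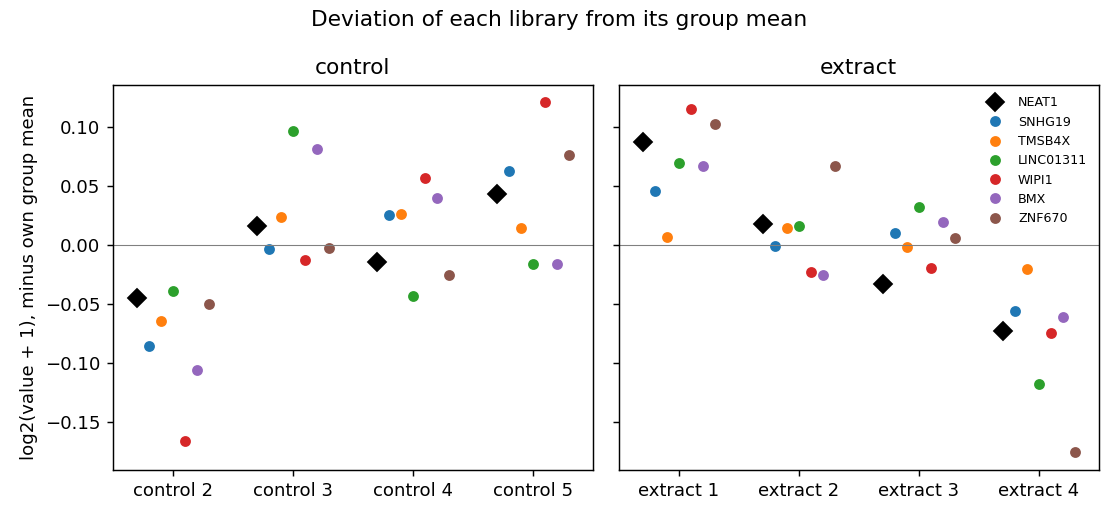
Log2(value + 1) of each library minus the mean of its own group, for NEAT1 (black diamonds), the 5 genes most like it over the 8 libraries and ZNF670. In control 2 and in extract 4 all 7 genes lie below their group mean and in extract 1 all 7 lie above it, as genes picked for their likeness to NEAT1 tend to.

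The cells were checked against markers as far as the table allows. Of 11 genes that mark K562 and erythroid-like leukemia cells 1 was listed, the embryonic globin HBZ, from 2876 ± 47.2 in the controls to 5097 ± 149 with the extract. Of 17 markers of megakaryocytes, T cells, monocytes and granulocytes, fibroblasts and epithelium 4 were listed, ITGA2B, CD3D, CD68 and COL1A1, and 0 of these were at 0 in any library. Their summed value was 65.72 to 70.39 in the controls and 35.34 to 38.88 with the extract, so it moved in the same direction as NEAT1. Its part in the result was not tested. In bulk RNA fewer cells of a kind and less RNA per cell cannot be told apart, which holds for NEAT1 as well.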

How the data were processed

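RNA-seq of 8 K562 libraries, 4 with and 4 without the extract, was used as deposited. HISAT2, StringTie and GRCh38 are named in the submitters' processing notes, without their roles or versions. The deposited table holds expression values with 2 decimals whose unit is not given in the sources used here. For each gene it also holds the authors' fold change (a ratio) and log2 fold change, with raw and adjusted p-values, per the file headers. No counts were given, so depth is unknown and no counting interval is given. The members, lists and rule for named genes were chosen with earlier results of these data known.

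From the deposited values, log2(value + 1) was tested with limma 3.58.1 (R 4.3.3; trended, robust empirical Bayes) over the 750 genes that reached a value of 1 in 4 or more of the 8 libraries, called at a Benjamini-Hochberg adjusted p of 0.05. The step was tested on simulated data in which most genes were unchanged and equal numbers were raised and lowered. In the real table most tested genes were called, more of them lower, so the simulation does not show how the step behaves there. NEAT1 itself was described without a test. Gene positions and transcript sequences came from GENCODE 29 (GRCh38), by gene ID, which 1866 of the 1950 genes matched. No promoter sequence is printed, and some list members are not reported here. Named were NEAT1, listed members of the fixed lists (values for up to 4 tested per list by lowest p), the 5 genes most correlated with NEAT1 over the libraries and the 5 within groups, listed genes within 2 Mb (values for the 5 nearest), and marker genes. Alternatives were pseudocounts, filters, centring, quantile normalization, a replicate block and leaving out each library.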

Additional observations from a re-analysis of the deposited data

Results flagged for a closer look

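In 8 of 68 groups of 4 libraries, 1 library lay far from the other 3 (Dixon's criterion at 95%), where chance alone flags about 1 in 20, or 3.4. None of the 8 was a NEAT1 group. RF01955, the block inside NEAT1, gave 2 of them, with 28.06 in control 4 and 192.74 in extract 4 while the others of each group were listed at 0. UCA1 was low in extract 2 (37.36, others 41.87 to 42.68) and TMSB4X in control 2 (1072.78, others 1133.12 to 1142.55). ATF3 was low in control 5 (7.73, others 8.29 to 8.34). SLC2A3 was high in extract 1 (22.85, others 20.64 to 20.86), the death gene BBC3 in control 3 (15.49, others 12.35 to 12.44) and CD3D in extract 2 (22.87, the lowest of the others 18.5).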

How the results depend on the processing

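The NEAT1 difference (−0.69) kept its sign under all 13 alternatives run, and moved by more than its spread within groups under median centring (−0.42) and quantile normalization (−0.59). Leaving out each library gave −0.72 to −0.66. The replicate block gave −0.70 for NEAT1 and 511 called genes, against 621 without the block. Same-numbered libraries correlated at 0.0754 to 0.149 in 3 pairs, each the highest correlation of its extract library with any control. Control 2, however, correlated better with extract 1 (0.136) than with extract 2 (0.0754). All these correlations are weak, and whether the numbers pair the libraries cannot be told from them. Under the block FAM89B lost its call (limma adjusted p = 0.224) and the other 29 named tested genes did not change theirs. Of all tested genes 201 were called higher and 420 lower. With median centring these were 228 and 241, and with quantile normalization 222 and 251. With a filter at 5 only 277 genes were tested, and 253 were called, 71 higher and 182 lower. Without a filter 314 were higher. Leaving out each library gave 538 to 584 calls, 163 to 190 higher and 369 to 394 lower. Quantile normalization gave TMSB4X and HBZ a difference of 0, because it sets the highest ranks of all libraries to 1 value. ITGA2B lost its call under both scalings (limma adjusted p = 0.105 and 0.0976), and TCAP gained one (0.00603 and 0.0258). Otherwise the cause of a lost call was not tested.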
